A study of Mus musculus with 18 samples.

Results

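The genes around Ccr2 on mouse chromosome 9 were compared between CCR2-/- and wild-type (WT) forestomachs. The set holds the 101 entries with a reference gene that start on chromosome 9 within 5 Mb of the start of Ccr2, out of 28934 such entries in the deposited table, and Ccr2 itself is not among them. Of the 101 entries, 67 reached 0.5 FPKM in 3 or more of the 18 libraries and were tested, and 34 did not. FPKM is the number of sequenced fragments scaled to the length of a gene and to the depth of the library. All mice were male C57BL/6. CCR2-/- mice (n = 6) and WT mice (n = 6) were gavaged with the esophageal carcinogen N-nitrosomethylbenzylamine (NMBA) at 0.25 mg/kg of body weight. Gavage took place 2 times in each of 5 weeks. Control CCR2-/- mice (n = 3) and control WT mice (n = 3) were given 1% carboxymethyl cellulose instead. Forestomachs were taken at the end of week 25. The CCR2-/- mice carried the targeted allele Ccr2tm1Ifc/J from the Jackson Laboratory. The sources used here do not say whether WT mice were littermates, nor how much DNA of the strain in which the allele was made remains beside Ccr2, so the lost receptor and the flanking DNA of the allele cannot be told apart. The study describes the sequenced tissue as tumors, and the tumor share of each NMBA sample is not known here.

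Chemokine receptors are G protein-coupled receptors that steer leukocytes toward chemokines, and many of the receptors for CC chemokines lie side by side in this stretch of the chromosome. CCR2 brings monocytes out of the bone marrow and into inflamed tissue. Genes that lie close to a targeted gene are inherited with it, so in a mutant strain they can come from the strain that supplied the embryonic stem cells.

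Ccr2 checked the labels. It measured 0 to 0.0798 FPKM in the 9 CCR2-/- libraries, against 1.30 to 3.43 FPKM in the 9 WT libraries, a log2 fold change of -1.62 (SE 0.094, adjusted p = 1.43e-08 in limma). The table gives no counts. Relative depth, taken from the steps between low FPKM values, differed by at most 1.38-fold between libraries, and no counting interval can be given. By the letters in the labels, NMBA replicates 1 to 3 carry another code than 4 to 6 in both genotypes. Each letter belongs to 1 group, so letter and group cannot be told apart. The study also describes heterozygous mice, and no library is labelled so. Levels in whole tissue cannot tell fewer cells of a type from less RNA per cell.

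The upstream sequences of Xcr1 and Slc6a20a are shown because these were the genes of the set whose difference between genotypes passed the test. Both run on the minus strand, and each sequence covers bases 250 to 54 before the RefSeq start, a window that ends where the annotated first exon of Slc6a20a begins. Capitals mark each CG dinucleotide. Xcr1 is at chr9:123862083-123862279 and Slc6a20a at chr9:123678886-123679082 (GRCm38.p6, RefSeq).
Xcr1: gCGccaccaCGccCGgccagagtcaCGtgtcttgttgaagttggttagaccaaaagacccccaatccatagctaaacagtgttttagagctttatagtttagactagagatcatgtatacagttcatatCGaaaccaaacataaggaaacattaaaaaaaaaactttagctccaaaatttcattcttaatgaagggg
Slc6a20a: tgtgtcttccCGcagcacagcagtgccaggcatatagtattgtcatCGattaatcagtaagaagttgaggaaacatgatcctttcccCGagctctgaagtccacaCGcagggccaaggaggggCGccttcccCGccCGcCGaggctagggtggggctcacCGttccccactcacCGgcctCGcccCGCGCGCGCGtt
The Xcr1 window holds 5 CG dinucleotides and is 39.1% G and C. The Slc6a20a window holds 16 CG dinucleotides and is 61.4% G and C. Of 32841 mouse promoters cut to the same window, 46.8% hold at least as many CG as Xcr1 and 15.3% at least as many as Slc6a20a. The median is 4.

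The first question was whether flanking genes differ with genotype when all libraries are used, 9 against 9, with treatment in the model. Xcr1 rose and Slc6a20a fell in CCR2-/- forestomach, and the other 65 tested members did not pass an adjusted p of 0.05. These 2 are 2.99% of the 67 tested members. Over all 14765 tested genes 19 were called (0.129%), 14 of them higher (0.0948%) and 5 lower (0.0339%), Ccr2 among the latter. By p, Slc6a20a ranked 3 and Xcr1 ranked 4 of all tested genes, after Ccr2 in rank 1. At an unadjusted p under 0.05 stood 10 members (14.9%), beside 5.97% of all genes. Values of the 9 CCR2-/- and the 9 WT libraries did not overlap for 1 member, Xcr1, which was higher. Of all genes 0.0542% did not overlap, 0.0339% being higher. The log2 fold change was above 0 in 30 of the 67 members (44.8%), beside 53.3% of all genes.

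Under NMBA, 6 against 6, the called members were again Xcr1 and Slc6a20a. Of all genes 7 were called (0.0474%), 3 higher (0.0203%) and 4 lower (0.0271%), Ccr2 among the latter. An unadjusted p under 0.05 was reached by 10 members (14.9%), beside 6.3% of all genes. Both called genes had no overlap between genotypes, as did 0.325% of all genes. In controls, 3 against 3, limma called no member and 1 of all genes (0.00677%), Ccr2 itself, which was lower. An unadjusted p under 0.05 was reached there by 9 members (13.4%), beside 5.11% of all genes.

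**Figure D1:**
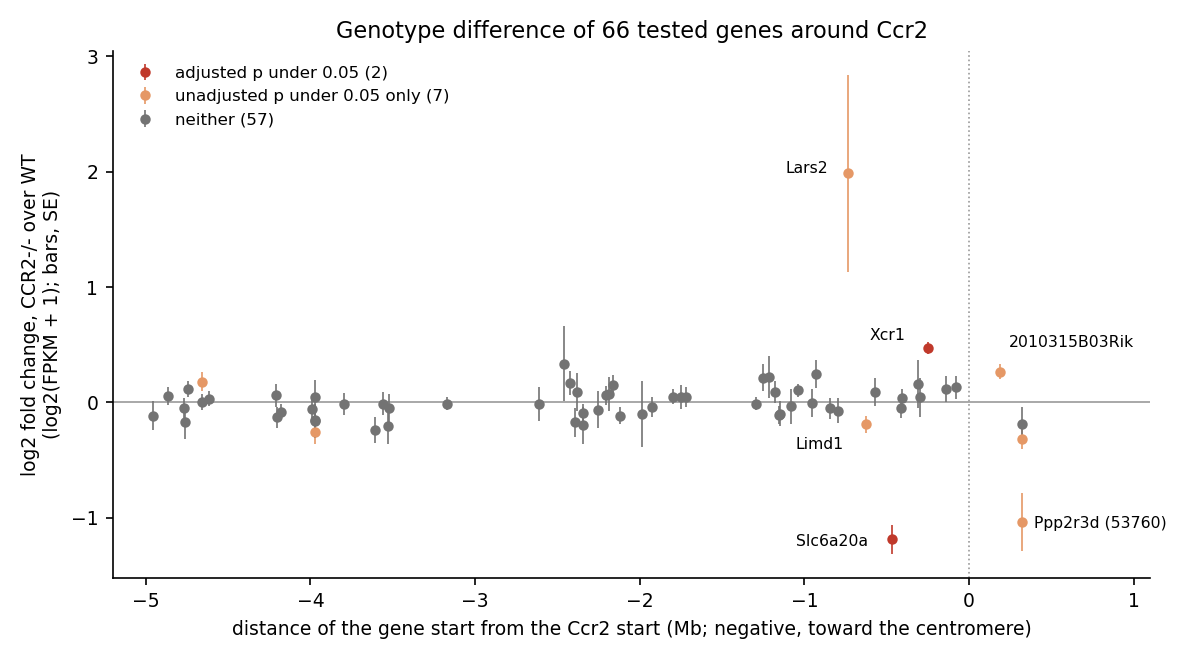
Genotype difference of 66 of the 67 tested genes by the distance of their start from the Ccr2 start in Mb (negative toward the centromere), as log2 fold change of CCR2-/- over WT on log2(FPKM + 1), with bars for the SE. Xcr1 (0.47) and Slc6a20a (-1.19) passed an adjusted p of 0.05, 7 genes shown passed only an unadjusted p of 0.05, and most of these stand within 1 Mb of Ccr2.

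Xcr1 encodes the receptor for the chemokine XCL1 and marks the dendritic cells that cross-present antigen to CD8+ T cells. It lies on chromosome 9 from 123852315 to 123862029 (GRCm38, minus strand), 0.25 Mb toward the centromere from Ccr2, and its 2 annotated exons overlap no gene on the other strand. Under NMBA the lowest, median and highest values were 0.534, 0.734 and 0.837 FPKM in the 6 CCR2-/- libraries, against 0.161, 0.260 and 0.324 FPKM in the 6 WT libraries. The control libraries had 0.744, 0.510 and 0.727 FPKM in CCR2-/- mice, against 0.134, 0.135 and 0.210 FPKM in WT mice. Every CCR2-/- library was above every WT library, with or without NMBA. Over all libraries Xcr1 averaged 0.689 ± 0.115 FPKM in CCR2-/- mice and 0.217 ± 0.0745 FPKM in WT mice (SD, n = 9 each), a ratio of means of 3.17. The log2 fold change was 0.47 (SE 0.053, adjusted p = 0.000145 in limma). Adding 1 FPKM before the logarithm draws this value toward 0, and with 0.1 FPKM added it was 1.34 (adjusted p = 0.000309 in limma).

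Within the treatments, Xcr1 was higher in CCR2-/- than in WT mice under NMBA (log2 fold change 0.45, SE 0.066, adjusted p = 0.00917 in limma). In controls its log2 fold change was 0.52 (SE 0.093, adjusted p = 0.233), which did not pass. The difference between these effects was -0.06 (SE 0.11, adjusted p = 0.927). The gap was also present within each range of NMBA replicates. Replicates 1 to 3 had 0.751 to 0.837 FPKM in CCR2-/- mice and 0.225 to 0.305 FPKM in WT mice, and replicates 4 to 6 had 0.534 to 0.717 FPKM in CCR2-/- mice and 0.161 to 0.324 FPKM in WT mice. The call under NMBA was lost in fits that kept the controls and only part of the NMBA replicates. With replicates 1 to 3 the adjusted p was 0.276 and with 4 to 6 it was 0.80 in limma. With the 12 NMBA libraries alone it was 0.0533. No WT library reached 0.5 FPKM, so Xcr1 passed the filter through CCR2-/- libraries only. With no filter, over 28156 entries, its adjusted p was 0.000115.

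Other genes of the XCR1+ dendritic cell did not pass. Of the 8 genes of that list that were tested, Xcr1 was called and the other 7 were not, with a median log2 fold change of -0.02 over the 8. Batf3, a transcription factor these cells need, had a log2 fold change of -0.20 (adjusted p = 0.792), Irf8, another, of -0.06 (adjusted p = 0.901), and Itgae, which encodes CD103 of dendritic and T cells, of 0.30 (adjusted p = 0.802). Clec9a has no entry of its own and Snx22 has none. The summed FPKM of the list without Xcr1 was 16.0 to 21.3 in CCR2-/- libraries and 15.6 to 25.4 in WT libraries, and no gene of the list was at 0 throughout a group. Naaa made up most of each sum, with 9.05 to 12.7 FPKM in CCR2-/- and 8.66 to 15.1 FPKM in WT libraries. The sums thus mainly follow that gene and do not measure the number of these cells. Xcl1, the gene of its ligand, stood at -0.17 (log2 fold change, adjusted p = 0.893). Of 7 T-cell genes none was called, all 7 had a positive log2 fold change (median 0.16), and Cd4 had the largest, 0.52 (adjusted p = 0.259). Their summed FPKM was 6.69 to 14.3 in CCR2-/- and 5.16 to 12.4 in WT libraries under NMBA. In controls the sums were 5.70 to 9.89 in CCR2-/- and 2.27 to 5.58 in WT libraries, which do not overlap. At 3 against 3 libraries, 9.21% of all tested genes, each taken singly, did not overlap either. The part of T cells in the Xcr1 values was not tested.

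Slc6a20a encodes a sodium-dependent transporter of proline and other imino acids. It lies on chromosome 9 from 123636122 to 123678885 (GRCm38, minus strand), 0.47 Mb toward the centromere from Ccr2. Under NMBA the lowest, median and highest values were 0.325, 0.580 and 0.894 FPKM in the 6 CCR2-/- libraries, against 2.24, 3.19 and 4.33 FPKM in the 6 WT libraries. The control libraries had 0.0626, 0.618 and 0.330 FPKM in CCR2-/- mice, against 1.57, 0.847 and 1.63 FPKM in WT mice. The genotypes did not overlap within either treatment. Across treatments the lowest WT library, control replicate 2, was below the highest CCR2-/- library, NMBA replicate 1. Over all libraries Slc6a20a averaged 0.515 ± 0.269 FPKM in CCR2-/- mice and 2.55 ± 1.08 FPKM in WT mice (SD, n = 9 each), a ratio of means of 0.201.

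The log2 fold change of Slc6a20a was -1.19 over all libraries (SE 0.13, adjusted p = 9.61e-05 in limma) and -1.37 under NMBA (SE 0.14, adjusted p = 0.000115). With 0.1 FPKM added before the logarithm in place of 1, it was -2.15 over all libraries (adjusted p = 0.000309) and -2.26 under NMBA (adjusted p = 0.00637). In controls it was -0.82 (SE 0.20, adjusted p = 0.523), which did not pass. The difference between these effects was -0.55 (SE 0.24, adjusted p = 0.893, unadjusted p = 0.0338). Replicates 1 to 3 under NMBA had 0.694 to 0.894 FPKM in CCR2-/- mice and 3.29 to 4.33 FPKM in WT mice. Replicates 4 to 6 had 0.325 to 0.466 FPKM in CCR2-/- mice and 2.24 to 3.09 FPKM in WT mice, where the fit gave -1.39 (adjusted p = 0.0505). Within each genotype replicates 4 to 6 were thus all below replicates 1 to 3. Leaving out any 1 of the 18 libraries kept the difference over all libraries between -1.26 and -1.13, with an adjusted p of at most 0.000445. Glandular stomach markers, such as the pepsinogen gene Pgc, varied between libraries. Of the 8 tested none was called. Their log2 fold changes were 0.30 to 0.45 over all libraries, -0.42 to 0.05 under NMBA and 0.81 to 1.999 in controls. Their part in the Slc6a20a values was not tested. Their summed FPKM was 5576 to 63872 in CCR2-/- and 4436 to 49782 in WT libraries. Without the 2 libraries highest in Pgc, CCR2-/- NMBA replicate 4 and WT control replicate 3, both Xcr1 and Slc6a20a were again called. That fit left the controls uneven in Pgc, at 13173 to 19168 FPKM in CCR2-/- mice and 1507 and 3977 FPKM in WT mice. It therefore cannot show the part of glandular tissue in these values.

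The entry beside Slc6a20a joins Ccr9, a receptor that guides lymphocytes to the gut, and Gm17200, a long noncoding RNA. It stayed below the filter. Under NMBA it had 0.0482, 0.0974 and 0.128 FPKM (lowest, median and highest) in CCR2-/- libraries, against 0.232, 0.354 and 0.424 FPKM in WT libraries. In controls it had 0.0483, 0.153 and 0.0520 FPKM in CCR2-/- mice, against 0.0962, 0.140 and 0.181 FPKM in WT mice. The genotypes did not overlap under NMBA and overlapped in controls. In an exact two-sided permutation test of the mean difference, with genotype permuted within treatment, p was 0.000325 for a difference of -0.186 FPKM, 1 of 4 such tests on members below the filter. With no filter, limma gave a log2 fold change of -0.22 (adjusted p = 0.0486) over all libraries and -0.30 (adjusted p = 0.00435) under NMBA. In GENCODE M21 the 5′ ends of Slc6a20a and of Ccr9 and Gm17200 run over each other on opposite strands, with 22 shared exonic bases of 4084 in Slc6a20a. Strand-specific counting is not stated, so fragments from the overlap cannot be assigned to 1 of these genes.

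Slc6a20b, the paralog of Slc6a20a in mice, was hardly detected. It reached 0.0221 to 0.0489 FPKM in CCR2-/- and 0.0204 to 0.0984 FPKM in WT libraries under NMBA. In controls it was listed at 0 in all 3 CCR2-/- libraries, against 0.0210 to 0.0254 FPKM in the 3 WT libraries. The exact permutation test gave p = 0.00714 for a difference of -0.024 FPKM, and limma with no filter gave an adjusted p of 0.859. Because the genes are paralogs, fragments may be shared between them.

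**Figure D2:**
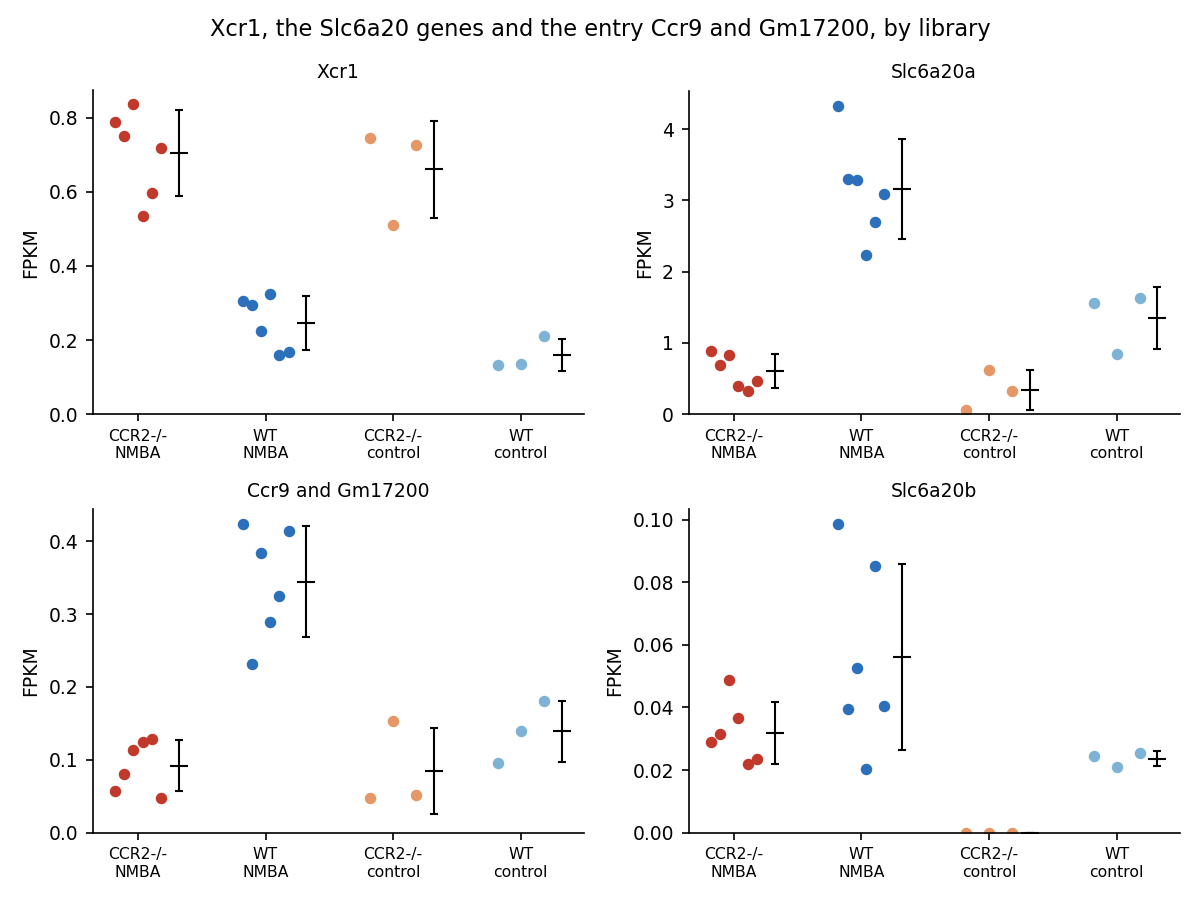
FPKM of Xcr1, Slc6a20a, the joined entry of Ccr9 and Gm17200, and Slc6a20b in each library, with axes from 0. Points are libraries, and the bar beside each group is the mean with its SD. In Xcr1 both CCR2-/- groups (0.510 to 0.837 FPKM) stand above both WT groups (0.134 to 0.324 FPKM), and in Slc6a20a they stand below the WT group of the same treatment.

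Among 9 tested transporter genes of the same SLC6 family, Slc6a20a alone was called for genotype. The other 8 had log2 fold changes of -0.06 to 0.27, among them Slc6a19 (0.06, adjusted p = 0.909), a neutral amino acid transporter, and Slc6a8 (0.27, adjusted p = 0.852), the creatine transporter. Of 8 tested genes of proline and sarcosine metabolism none was called. Prodh, the first enzyme of proline breakdown, had a log2 fold change of -0.16 (adjusted p = 0.852).

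The receptors for inflammatory CC chemokines lie near Ccr2. Ccr3, the eotaxin receptor of eosinophils, and Ccr1, a receptor of neutrophils and monocytes, lie 80.0 kb and 139.8 kb toward the centromere. Ccr3 averaged 0.604 ± 0.245 FPKM in CCR2-/- mice and 0.463 ± 0.207 FPKM in WT mice, a log2 fold change of 0.13 (SE 0.10, adjusted p = 0.863). Ccr1 averaged 1.41 ± 0.444 FPKM in CCR2-/- mice and 1.22 ± 0.410 FPKM in WT mice, a log2 fold change of 0.12 (SE 0.11, adjusted p = 0.863; SD, n = 9 each). Both overlapped widely between genotypes. Of 5 eosinophil genes, Ccr3 and Siglecf were tested and neither was called. Siglecf had a log2 fold change of 0.28 (adjusted p = 0.589 in limma). Epx, Prg2 and Il5ra stayed below the filter, and Prg2 had 0 to 0.506 FPKM in CCR2-/- and 0 to 0.680 FPKM in WT libraries. Summed over the 5 genes, FPKM was 1.00 to 2.84 in CCR2-/- and 0.876 to 1.62 in WT libraries. Ccr1l1, a receptor-like gene between Ccr1 and Ccr3, stayed below the filter with 0.0329 to 0.222 FPKM in CCR2-/- and 0 to 0.0794 FPKM in WT libraries. The exact permutation test gave p = 0.00595 for its difference of 0.0629 FPKM, and limma with no filter gave an adjusted p of 0.744.

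Farther out, Cxcr6, Cx3cr1 and Ackr2 were not called. Cxcr6, the CXCL16 receptor of tissue T cells, averaged 1.68 ± 0.756 FPKM in CCR2-/- mice and 1.65 ± 0.910 FPKM in WT mice, with a log2 fold change of 0.05 (SE 0.17, adjusted p = 0.958) whose sign turned when 1 of 4 libraries was left out. In controls it had 0.787 to 2.23 FPKM in CCR2-/- mice, against 0.581 to 0.858 FPKM in WT mice. Cx3cr1, the fractalkine receptor of monocytes and macrophages, averaged 2.37 ± 0.332 FPKM in CCR2-/- mice and 2.72 ± 0.647 FPKM in WT mice, a log2 fold change of -0.13 (SE 0.092, adjusted p = 0.863). Of 9 macrophage and monocyte genes none was called (median log2 fold change -0.05), and their summed FPKM was between 74.5 and 123.2 in CCR2-/- and between 97.8 and 156.7 in WT libraries under NMBA. Their part in the Cx3cr1 values was not tested. Ackr2, a scavenging receptor that clears CC chemokines, averaged 0.932 ± 0.236 FPKM in CCR2-/- mice and 0.858 ± 0.288 FPKM in WT mice, a log2 fold change of 0.06 (SE 0.083, adjusted p = 0.891; SD, n = 9 each). Its sign turned in the fit without NMBA replicates 4 to 6, which kept the controls. In NMBA replicates 1 to 3 Ackr2 averaged 0.766 FPKM in CCR2-/- mice and 0.720 FPKM in WT mice. Its log2 fold change was 0.18 under NMBA and -0.17 in controls, and neither passed. Ccr8, a receptor of regulatory T cells, stayed below the filter with 0.0416 to 0.538 FPKM in CCR2-/- and 0.0602 to 0.493 FPKM in WT libraries (exact permutation p = 0.613).

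Thus 7 receptor genes around Ccr2 were tested and 1, Xcr1, was called, with a median log2 fold change of 0.06. Of 8 tested chemokine receptors elsewhere in the genome none was called, and their log2 fold changes were -0.05 to 0.11. Of 16 tested ligands of the flanking receptors none was called. Ccl9, a ligand of CCR1, had the lowest log2 fold change of these, -0.49 (adjusted p = 0.602), and Ccl8, an inflammatory CC chemokine, the highest, 0.29 (adjusted p = 0.863).

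**Figure D3:**
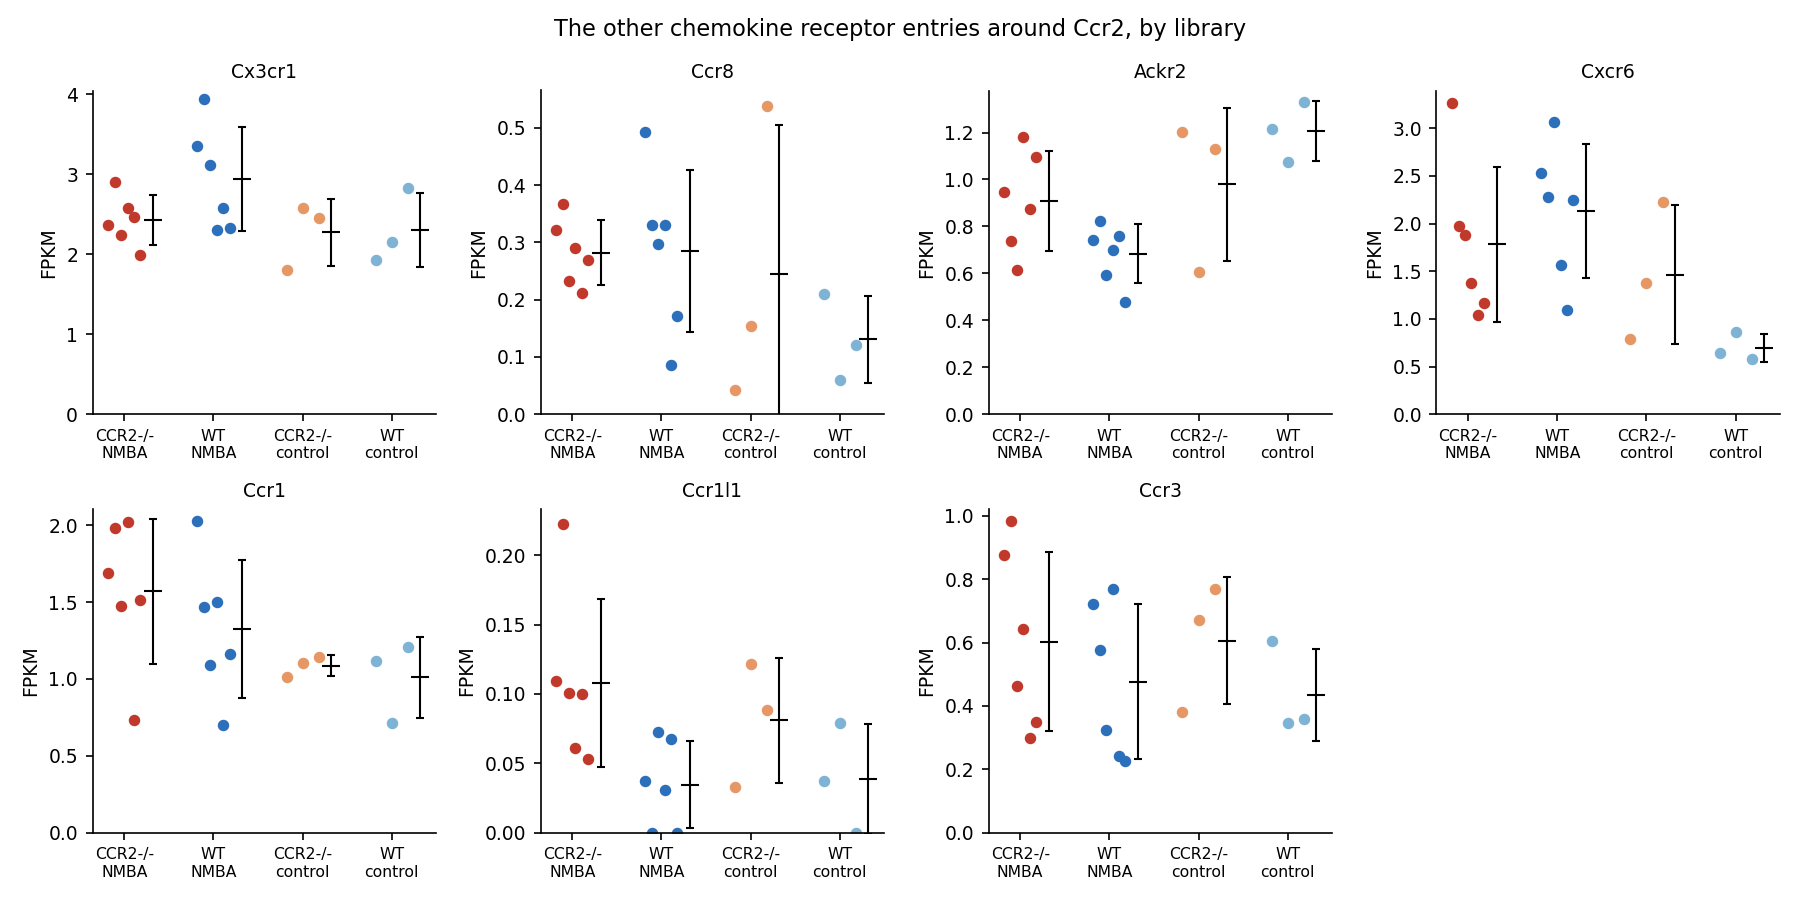
FPKM of 7 other chemokine receptor entries around Ccr2 in each library, with axes from 0. Points are libraries, and the bar beside each group is the mean with its SD, cut at 0. CCR2-/- and WT libraries overlap in every panel when the treatments are pooled.

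Toward the telomere lie 2010315B03Rik and 3 entries of Ppp2r3d, the last 0.32 Mb from Ccr2. The entry 2010315B03Rik had 2.28, 2.90 and 3.41 FPKM (lowest, median and highest) in CCR2-/- libraries under NMBA, against 2.03, 2.32 and 2.52 FPKM in WT libraries. In controls it had 3.20, 3.20 and 3.33 FPKM in CCR2-/- mice, against 2.56, 2.26 and 2.07 FPKM in WT mice. Its values did not overlap in controls and overlapped under NMBA. The log2 fold change was 0.27 (SE 0.063, unadjusted p = 0.000439, adjusted p = 0.175 in limma).

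Ppp2r3d, which encodes a regulatory subunit of protein phosphatase 2A, appears as 3 assembled entries with the same reference span, so its fragments may be divided among them. MSTRG.53760 had 0.384, 1.94 and 3.67 FPKM (lowest, median and highest) in CCR2-/- libraries under NMBA, against 2.29, 3.08 and 6.29 FPKM in WT libraries. In controls it had 0.567, 1.09 and 1.63 FPKM in CCR2-/- mice, against 5.86, 6.39 and 4.88 FPKM in WT mice. The genotypes overlapped under NMBA and not in controls, and the log2 fold change over all libraries was -1.03 (SE 0.25, unadjusted p = 0.000601, adjusted p = 0.219 in limma). MSTRG.53754 averaged 6.42 ± 0.823 FPKM in CCR2-/- mice and 8.28 ± 1.19 FPKM in WT mice (SD, n = 9 each), a log2 fold change of -0.32 (SE 0.088, adjusted p = 0.376). MSTRG.53756 had opposite signs in the treatments, 0.13 under NMBA (SE 0.13, adjusted p = 0.791) and -0.84 in controls (SE 0.19, adjusted p = 0.474). That difference of 0.97 (SE 0.23) had an unadjusted p of 0.000573 and an adjusted p of 0.893. Summed over the 3 entries, Ppp2r3d had 7.21 to 13.2 FPKM in CCR2-/- and 9.55 to 16.1 FPKM in WT libraries under NMBA. In controls the sums were at most 8.56 FPKM in CCR2-/- and at least 14.6 FPKM in WT libraries, so they did not overlap, with means of 8.31 ± 0.281 FPKM in CCR2-/- mice and 16.9 ± 2.52 FPKM in WT mice (SD, n = 3 each).

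**Figure D4:**
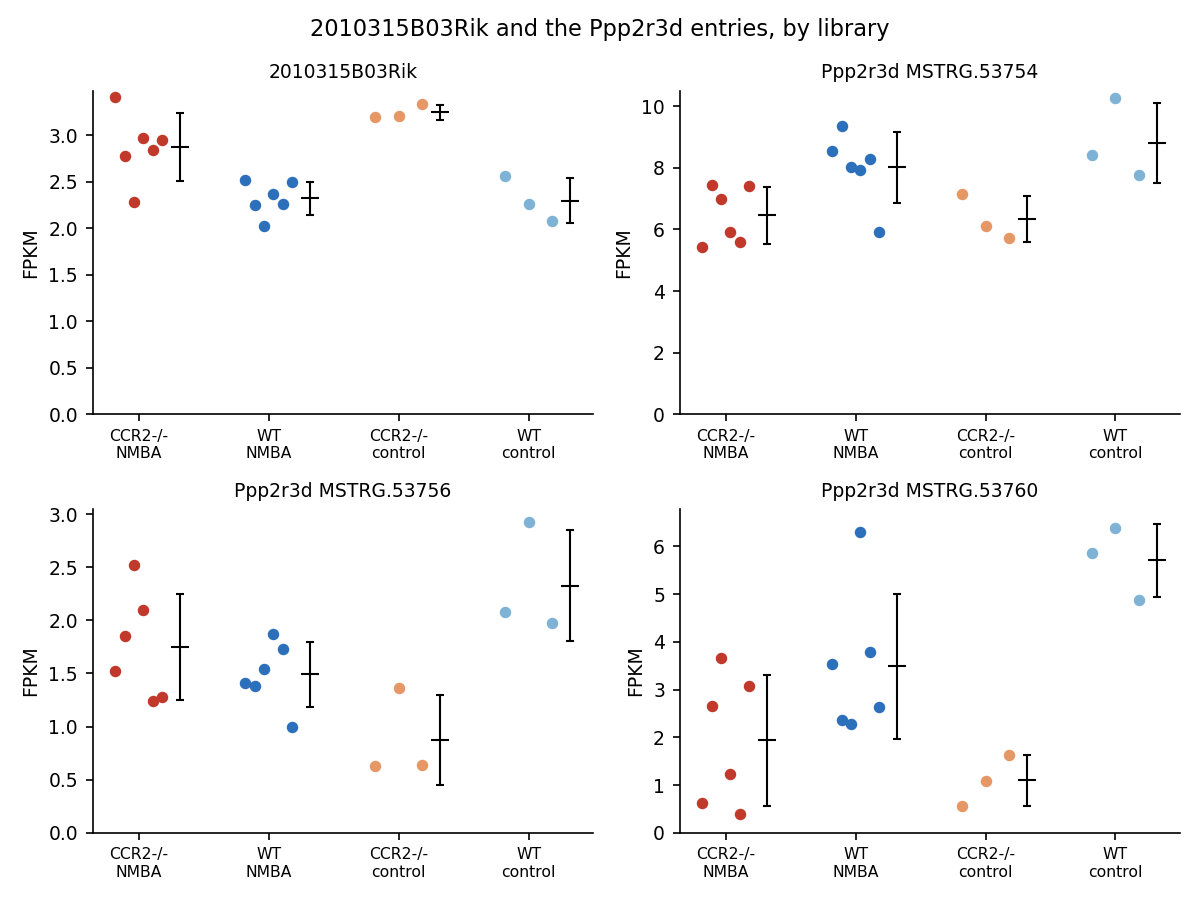
FPKM of 2010315B03Rik and the 3 Ppp2r3d entries in each library, with axes from 0. Points are libraries, and the bar beside each group is the mean with its SD. In controls the CCR2-/- libraries stand above the WT libraries for 2010315B03Rik (3.20 to 3.33 against 2.07 to 2.56 FPKM) and below them for each Ppp2r3d entry.

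Differences were more frequent near Ccr2. Of 13 tested members within 0.5 Mb, 2 were called and 6 (46.2%) had an unadjusted p under 0.05. Between 0.5 and 1 Mb these were 0 and 2 of 7 members, and from 1 to 5 Mb 0 and 2 of 47 (4.26%). The median size of the log2 fold change was 0.19 within 0.5 Mb and 0.09 from 1 to 5 Mb, beside 0.08 over all tested genes. Among the 6 within 0.5 Mb were 2010315B03Rik, Xcr1, Slc6a20a and 2 of the 3 Ppp2r3d entries, which share a gene. Both signs occurred among them. In controls, values of the 3 CCR2-/- and the 3 WT libraries did not overlap for 6 of the 13 members within 0.5 Mb. These 6 include all 3 Ppp2r3d entries. Of all 67 members 13 did not overlap in controls (19.4%), beside 9.21% of all genes. Beyond 5 Mb, 756 other genes of chromosome 9 were tested, of which 1 was called (0.132%) and 35 had an unadjusted p under 0.05 (4.63%). The outermost member, Dlec1 at 5.00 Mb, stayed below the filter, and the next gene outside, Plcd1 at 5.03 Mb, had a log2 fold change of 0.04 (adjusted p = 0.915).

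**Figure D5:**
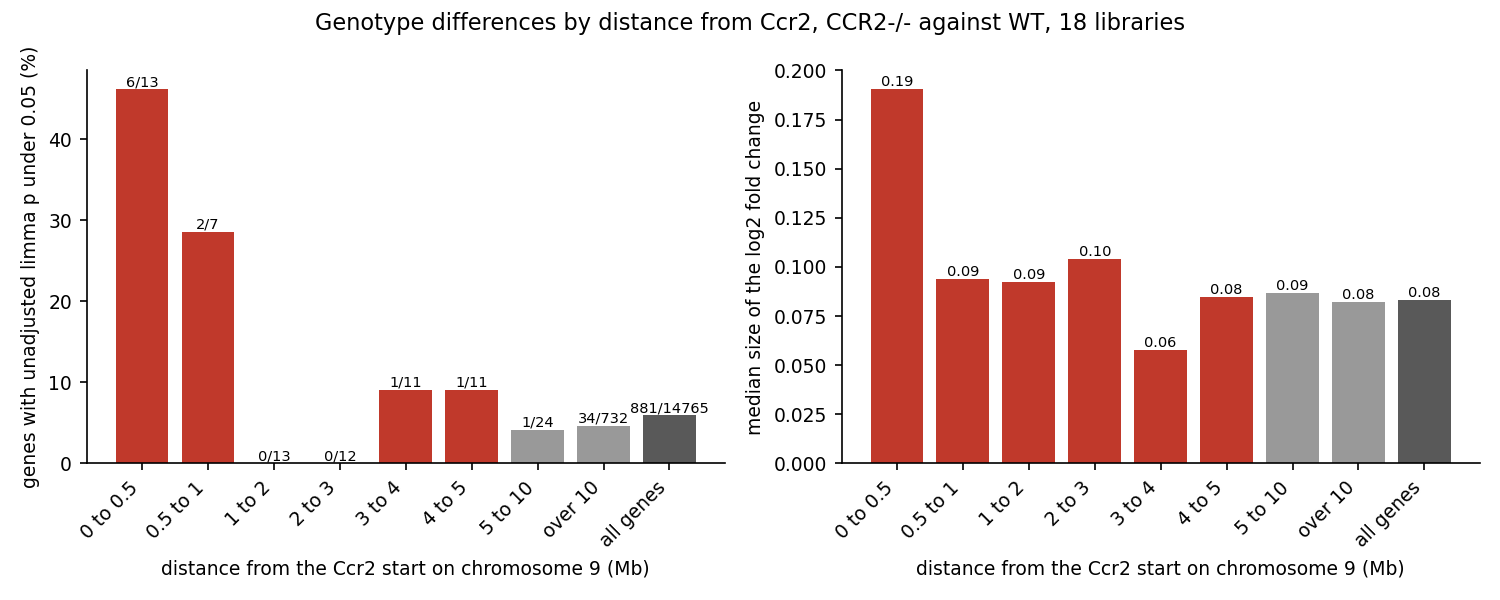
Left, percentage of tested genes with an unadjusted limma p under 0.05 for CCR2-/- against WT, by distance from the Ccr2 start in Mb, with counts above the bars. Right, median size of the log2 fold change in the same bins, both axes from 0. The share is 46.2% within 0.5 Mb and 28.6% from 0.5 to 1 Mb, beside 5.97% of all genes, and the median size is 0.19 within 0.5 Mb and at most 0.10 in the bins farther out.

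No other centromeric member within 1 Mb of Ccr2 was called. Lztfl1, which regulates traffic in cilia, had a log2 fold change of 0.04 (adjusted p = 0.921), Sacm1l, a phosphoinositide phosphatase, of 0.09 (adjusted p = 0.884), and Fyco1, an adaptor of autophagosome transport, of 0.16 (adjusted p = 0.885). Limd1, a LIM domain protein 0.62 Mb away, had a log2 fold change of -0.19 (SE 0.074, unadjusted p = 0.0194, adjusted p = 0.757). Lars2, the mitochondrial leucyl-tRNA synthetase gene at 0.74 Mb, had the largest positive value, 1.99 (SE 0.86, adjusted p = 0.792), which rests on a wide spread. It had 38.4 to 252 FPKM in the 9 CCR2-/- libraries. Of the WT libraries, NMBA replicate 6 had 505 and control replicate 2 had 507 FPKM, and the other 7 had 3.42 to 48.6 FPKM. The WT libraries thus lie on both sides of the CCR2-/- libraries, and the means of 128 FPKM in CCR2-/- mice and 125 FPKM in WT mice hardly differ.

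Grouped by role, no member outside the receptors and Slc6a20a was called for genotype. Signaling and adhesion genes, among them Myd88, the adaptor of Toll-like receptors, and Ctnnb1, which encodes beta-catenin, had log2 fold changes of -0.19 to 0.24 over 6 genes, Limd1 included. For 4 zinc finger genes the range was -0.20 to 0.22, for 6 metabolic enzymes -0.17 to 0.12 and for 6 genes of membrane traffic -0.08 to 0.17. The ribosomal protein genes Rpsa (651 FPKM) and Rpl14 (739 FPKM) had the highest mean levels of the set and log2 fold changes of -0.16 (adjusted p = 0.863) and -0.21 (adjusted p = 0.863). Both have many pseudogenes that could share fragments. Vipr1, a receptor for vasoactive intestinal peptide at 2.46 Mb, had 0.34 (SE 0.33, adjusted p = 0.863). Snora62, a small nucleolar RNA within Rpsa, had -0.26 (unadjusted p = 0.0203, adjusted p = 0.766), and the long noncoding RNA 4930516B21Rik had 0.18 (unadjusted p = 0.0455, adjusted p = 0.821). These were the 2 members beyond 1 Mb with an unadjusted p under 0.05.

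Exposure to NMBA changed 3 members over both genotypes, 4.48% of the 67 beside 1.71% of all genes (252 called). Of all genes 151 were higher (1.02%) and 101 lower (0.684%). For no member were all 12 NMBA libraries apart from all 6 controls, which held for 0.488% of all genes. Cyp8b1, a sterol hydroxylase of bile acid synthesis, rose with NMBA, with 4.72 ± 1.41 FPKM in the 12 NMBA libraries and 2.49 ± 0.573 FPKM in the 6 control libraries (SD), a log2 fold change of 0.69 (SE 0.16, adjusted p = 0.035 in limma). Zfp105, a zinc finger gene, fell to 0.893 ± 0.263 FPKM in NMBA libraries, against 1.57 ± 0.346 FPKM in control libraries, a log2 fold change of -0.44 (SE 0.10, adjusted p = 0.035). Slc6a20a rose with NMBA over both genotypes. In CCR2-/- mice it had 0.603 ± 0.238 FPKM under NMBA (n = 6) and 0.337 ± 0.278 FPKM in controls (n = 3). In WT mice it had 3.16 ± 0.704 FPKM under NMBA (n = 6) and 1.35 ± 0.436 FPKM in controls (n = 3). Its log2 fold change was 0.55 (SE 0.13, adjusted p = 0.0447). These calls did not hold with every library left out. The number of members called was 0 without CCR2-/- NMBA replicate 1, WT NMBA replicate 3, CCR2-/- control replicates 1 or 3, or any WT control, and 1 without replicate 2 of CCR2-/- or replicate 1 of WT mice under NMBA. The effect of NMBA did not differ between genotypes past the threshold of limma for any member or any other gene. With an unadjusted p under 0.05 there were 4 members (5.97%) and 673 of all genes (4.56%).

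The set holds 77 entries of protein-coding genes and 24 of other types by GENCODE M21, and of the tested members 56 and 11 belong to these classes. Toward the telomere lie 5 entries, all tested, and toward the centromere 96, of which 62 were tested. Of the 67 tested members, 62 passed the filter in both genotypes, each taken alone. Gm26797, A730085K08Rik and Xcr1 passed through CCR2-/- libraries, Snora62 through WT libraries, and Cck, which encodes cholecystokinin, only with both together. The member just inside the filter, Gm26797, reached 0.563 FPKM in 3 libraries, and the one just outside, Hhatl, 0.467 FPKM. Mean levels of the 34 untested members were at most 0.296 FPKM, and 2 of them were at 0 in all libraries.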

How the data were processed

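Total RNA of 18 forestomachs was sequenced by the authors from Illumina TruSeq libraries. The deposited table gives FPKM for 57234 genes and assembled regions, read as FPKM from its name and its values. The submitters' notes name mm10, GRCm38 and DESeq2, and the aligner and counting tool are not given in the sources used here. Depth per library is unknown, so the number of libraries sets the precision. Entries with a reference gene and at least 0.5 FPKM in 3 libraries were kept. On log2(FPKM + 1), limma 3.58.1 (R 4.3.3) fitted genotype and treatment, letting the prior variance follow the mean level, and the 4 groups as 1 factor for comparisons within treatments and for their difference. Tests were two-sided, with Benjamini-Hochberg adjustment over all 14765 genes and a threshold of 0.05. The fits were tested on simulated data. Nothing says that libraries of a group came from separate cages or days, so p measures the spread between these samples. The set, the gene lists and the tests were chosen with earlier results of these data known. Named were the chemokine receptors, Xcr1, Slc6a20a, Slc6a20b, members called or not overlapping, the 5 nearest, and the 3 largest changes of each sign at a mean of 1 FPKM. Other members, and single genes of the lists, were named after their values were seen. For members below the filter an exact permutation test was run in Python 3.11.15. Upstream sequences came from RefSeq (GRCm38.p6), which matched 73 of 101 members, and gene types from GENCODE M21, on the same build as the table. All columns were mapped to samples. Alternatives took other pseudocounts, filters, scalings, weights, a replicate block and fewer libraries, and the fit without the 2 libraries highest in Pgc was chosen after seeing the data. Single results of a few genes are not reported here.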

Additional observations from a re-analysis of the deposited data

Results flagged for a closer look

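In 3 of 42 groups of 6 libraries, the highest value stood apart from the other 5 by Dixon's test, which by chance marks about 1 group in 20. Lars2 had 252 FPKM in CCR2-/- NMBA replicate 5 and 505 FPKM in WT NMBA replicate 6, each far above the other 5 libraries of its group. Ccr1l1 had 0.222 FPKM in CCR2-/- NMBA replicate 2, above the other 5.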

How the results depend on the processing

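Genotype over all libraries called 2 members in the fit as reported and, with any 1 library left out, 2 to 2, which were Xcr1 and Slc6a20a each time. With no filter the count was 3, with the entry of Ccr9 and Gm17200 added. A filter of 1 FPKM left out Xcr1 and gave 1 call over all libraries and 1 under NMBA. Under NMBA the count was 2 with any 1 library left out, 1 with NMBA replicates 1 to 3, 0 with replicates 4 to 6 and 1 with the 12 NMBA libraries alone. In controls, and for the difference of the NMBA response, it was 0 in every alternative. For NMBA over all libraries, 3 calls became 0 with no filter, 14 with NMBA replicates 1 to 3, 0 with replicates 4 to 6, 1 without the 2 libraries highest in Pgc and 0 to 4 with 1 library left out. With the replicate number as a block the NMBA count was 10, and the genotype counts stayed at 2, 2 and 0. Deviations of libraries with the same number correlated with r of -0.29 to 0.429 over 9 pairs across genes. Libraries with different numbers were not compared. Whether samples with the same number share more than the number was thus not tested. The log2 fold change of Cxcr6 was -0.0493 to 0.113 with 1 library left out, and below 0 without CCR2-/- NMBA replicate 1 (-0.0254), WT NMBA replicate 5 (-0.0106), CCR2-/- control replicate 3 or WT control replicate 3 (-0.00133). That of Ackr2 was -0.0668 with NMBA replicates 1 to 3 and the controls. Every fit on only part of the NMBA replicates kept the controls. Under the alternatives run, the log2 fold change of Xcr1 over all libraries was 0.45 to 1.34 (adjusted p at most 0.0445) and that of Slc6a20a -2.15 to -1.09 (adjusted p at most 0.0206). The causes of these changes were not tested. In controls, 3 libraries a group limit what passes, and members near 0.5 FPKM rest on few fragments.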
